A study of Mus musculus with 4 samples.

Results

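The keratin family was described in the small intestine of wild-type mice and of mice carrying a CFLARs transgene (CFLARs Tg). CFLARs stands for the short isoform of cFLIP, a protein that controls caspase-8 activity. All mice were of the C57BL/6 strain. There were 2 wild-type arrays, titled XX and XY, and 2 CFLARs Tg arrays, titled XCFX and XCFY. Replicate 1 of each genotype is the XX-type array and replicate 2 the XY-type array, as far as the notation of the titles can be read. The labels do not give the promoter of the transgene, its copy number, the age of the mice, the stretch of the intestine or the number of animals behind an array. By its title the series addresses necroptosis in the gut epithelium and ileitis of preterm mice. The family was taken as every gene whose symbol is Krt followed directly by a digit, which gave 52 of the 19938 genes with a probe set of their own. Genes were selected on their symbols, and the probe set of each was to be chosen by its highest mean over the 4 arrays, but each of the 52 had only 1. By class, 6 were simple-epithelial keratins, 19 stratified keratins and 23 keratins of hair, hair follicle or nail, and 4 (Krt80, Krt88, Krt90 and Krt222) were given no class.

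Keratins are the intermediate filament proteins of epithelial cells. A filament is built from pairs of an acidic type I and a basic type II keratin, and neither type forms filaments alone. Cells of simple epithelia such as the gut lining use the type II keratin Krt8 with the type I keratins Krt18, Krt19 and Krt20, stratified epithelia use pairs such as Krt5 with Krt14, and hair keratins build the hair shaft and its sheaths. In the intestine Krt8 and Krt18 form the basic network under the apical membrane, Krt19 is enriched in crypts and Krt20 in the differentiated cells of the villus. Krt6a, Krt6b, Krt16 and Krt17 are known in skin as keratins that are induced after injury.

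The keratins of simple epithelia were higher in CFLARs Tg intestine. All 6 had both CFLARs Tg arrays above both wild-type arrays, and 5 of the 6 rose (limma, adjusted p under 0.05 over the 13956 genes that passed a filter on low values), where 8.44% of all genes fitted rose. Krt20 had the largest difference, 2.54-fold, and the others lay between 1.25-fold for Krt8 and 1.63-fold for Krt23. The median log2 difference of the class was 0.57, beside a median of -0.01 over all genes fitted. Over the whole family 20 of 52 genes passed the filter, of which 7 rose and 0 fell (limma), where 10.9% of all genes fitted fell. At an unadjusted p under 0.05 the counts were 11 higher and 0 lower, beside 17.2% and 21.9% of all genes fitted. The other 2 that rose were Krt14 and Krt80. When 1 array is left out, its genotype has 1 array and the spread comes from the other genotype alone. With wild-type replicate 1 left out, 0 keratins passed (limma, unadjusted p under 0.05 for 5 higher, beside 8.43% of all genes), when 0.301% of all genes passed. With wild-type replicate 2 left out, 0 passed (unadjusted p under 0.05 for 8 higher, beside 9.04%), when 0.287% of all genes passed. The differences themselves were 1.32 and 1.37 for Krt20 and 0.63 and 0.66 for Krt18 in these fits. With CFLARs Tg replicate 1 left out, 10 keratins passed as higher (22.3% of all genes), and with replicate 2 left out also 10 (14.1%). Krt15 and Krt19 were added both times, Krt17 without replicate 1 and Krt33b without replicate 2. Against a minimum log2 difference of 0.5, 0 of 20 keratins passed, where 0.38% of all genes passed as higher.

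The stretches before the annotated starts of the 5 simple-epithelial keratin genes that rose are shown because these members moved together. They are the 250 bases upstream of the start on the gene's strand, from RefSeq on build GRCm38.p6, which gave an entry for 36 of the 52 keratins. Krt20 lies at chr11:99438154-99438403 (minus strand), Krt23 at chr11:99493121-99493370 (minus), Krt18 at chr15:102027966-102028215 (plus), Krt8 at chr15:102004343-102004592 (minus) and Krt7 at chr15:101412153-101412402 (plus). Capitals mark matches on either strand to 5 motifs, TATAAA and the overlapping variant ATAAAA of the TATA box, CCNCNCCC of the Klf and Sp factors, TGANTCA of AP-1, and the NF-kB consensus.
Krt20: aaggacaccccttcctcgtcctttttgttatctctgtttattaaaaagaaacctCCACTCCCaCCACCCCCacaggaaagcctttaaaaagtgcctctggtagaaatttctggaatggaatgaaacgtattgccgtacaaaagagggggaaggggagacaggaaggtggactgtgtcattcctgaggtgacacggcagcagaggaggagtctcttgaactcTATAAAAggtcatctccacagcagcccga
Krt23: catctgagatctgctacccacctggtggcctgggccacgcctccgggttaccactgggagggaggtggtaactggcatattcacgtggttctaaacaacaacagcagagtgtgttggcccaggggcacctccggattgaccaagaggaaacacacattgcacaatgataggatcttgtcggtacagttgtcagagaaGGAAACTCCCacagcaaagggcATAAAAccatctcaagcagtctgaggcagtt
Krt18: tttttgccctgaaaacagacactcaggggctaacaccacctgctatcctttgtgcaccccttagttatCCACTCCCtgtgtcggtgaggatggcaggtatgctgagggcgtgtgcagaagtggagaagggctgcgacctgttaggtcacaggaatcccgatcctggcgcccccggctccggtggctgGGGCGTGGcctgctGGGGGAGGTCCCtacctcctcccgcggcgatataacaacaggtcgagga
Krt8: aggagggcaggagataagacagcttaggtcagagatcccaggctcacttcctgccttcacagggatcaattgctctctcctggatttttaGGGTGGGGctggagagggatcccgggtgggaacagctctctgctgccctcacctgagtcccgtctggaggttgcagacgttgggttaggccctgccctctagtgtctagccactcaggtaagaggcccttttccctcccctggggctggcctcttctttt
Krt7: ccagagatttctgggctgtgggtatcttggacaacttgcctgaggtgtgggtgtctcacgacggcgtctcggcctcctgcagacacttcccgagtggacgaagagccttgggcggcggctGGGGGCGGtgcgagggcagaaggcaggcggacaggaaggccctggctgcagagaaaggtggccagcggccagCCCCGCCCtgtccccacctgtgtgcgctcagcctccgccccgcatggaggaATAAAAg
TATAAA was found in Krt20 alone of the 5, starting 29 bases before the start, and ATAAAA in Krt20, Krt23 and Krt7, starting 28, 31 and 7 bases before it. TATAAA occurred in 12.4% and ATAAAA in 17.0% of all 32851 promoter stretches of this length, and in 17 and 20 of the 36 keratin stretches. CCNCNCCC was found in Krt20 and Krt7 at 2 places each, in Krt18 at 3 and in Krt8 at 1. It occurred in 45.9% of all stretches and in 14 of the 36 keratin stretches. The NF-kB consensus was found in Krt23 and in Krt18, where it overlaps a CCNCNCCC match. It occurred in 7.25% of all stretches and in 4 of the 36 keratin stretches. AP-1 letters were not found in the 5 stretches (6.75% of all, and 1 of the 36 keratin stretches). The motifs were chosen with the results and the sequences in view, and a match is a description of letters.

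Krt8, the type II partner of every simple-epithelial type I keratin, read 13.41 and 13.52 (log2 expression value) on the wild-type arrays and 13.82 and 13.77 on the CFLARs Tg arrays. The groups did not overlap, and the difference of 0.33 (SE 0.07, limma adjusted p = 0.038) was the smallest of the class. Krt18, its main type I partner, read 11.69 and 11.72 in wild-type and 12.36 and 12.33 in CFLARs Tg. The arrays of each genotype lay within 0.04 of each other, and the difference was 0.64 (SE 0.06, adjusted p = 0.015). Krt7, the second type II keratin of the class, known from ducts and some gut epithelia, read 11.01 and 10.92 against 11.32 and 11.39. Its difference was 0.38 (SE 0.06, adjusted p = 0.0281).

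Krt20, the type I keratin of differentiated villus cells, read 10.56 and 10.61 in wild-type, and 12.18 in the XCFX and 11.68 in the XCFY array. Both CFLARs Tg readings were at least 1.07 above both wild-type readings, although they differed by more from each other than the wild-type readings did. The difference was 1.35 (SE 0.17, adjusted p = 0.0202). Krt23, a type I keratin found in glandular epithelia, read 7.89 and 7.72 in wild-type and 8.52 and 8.50 in CFLARs Tg, a difference of 0.70 (SE 0.08, adjusted p = 0.0179). Krt19, the smallest keratin, which lacks most of the tail, read 12.05 and 12.15 in wild-type and 12.39 and 12.80 in CFLARs Tg. Its CFLARs Tg arrays stood above the wild-type arrays but apart from each other, and the difference of 0.50 (SE 0.15) did not pass (adjusted p = 0.0803). With the sex type of the titles as a block it passed (adjusted p = 0.0276), in a fit where 8 keratins and 10.1% of all genes rose. Its difference was 0.71 without CFLARs Tg replicate 1 and 0.29 without replicate 2.

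**Figure D1:**
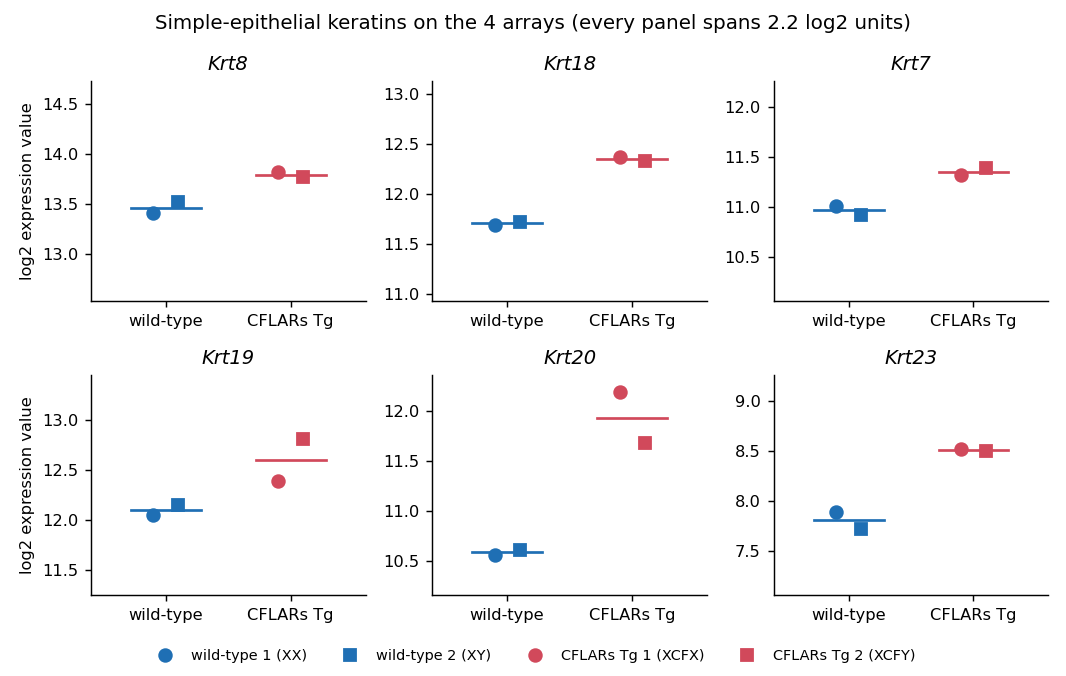
Log2 expression values of the 6 simple-epithelial keratins on each of the 4 arrays, with circles for XX-type and squares for XY-type arrays and a line at the mean of each genotype. Both CFLARs Tg points lie above both wild-type points in every panel, and the CFLARs Tg points of Krt20 and Krt19 are the most spread.

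By the genotype means, the type I members of the class had larger differences than the type II members. The 4 type I keratins differed by 0.50 to 1.35 and the 2 type II keratins by 0.33 and 0.38. Krt19 did not keep this order in every reading. Between the XX-type arrays it differed by 0.34 and Krt8 by 0.41. Without CFLARs Tg replicate 2, Krt19 differed by 0.29 and Krt7 and Krt8 by 0.35 each. Whether the types differ was not tested. Krt8 readings lay near the upper end of the deposited values, which reached 14.55, and the part of that in its difference was not tested.

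The stratified keratins were for the most part weakly measured, and 1 of the 7 fitted rose, beside 8.44% of all genes fitted. Krt14, the type I keratin of basal cells in stratified epithelia, read 8.29 and 8.27 in wild-type and 8.67 and 8.77 in CFLARs Tg, a 1.36-fold difference (log2 difference 0.44, SE 0.06, limma adjusted p = 0.0229). Its usual type II partner Krt5 was under the filter and read 7.18 and 7.29 against 7.32 and 7.35, a difference of 0.10. Krt17, an injury-associated type I keratin, read 8.41 and 8.51 in wild-type and 8.55 and 8.87 in CFLARs Tg. Its groups did not overlap, but the XCFX reading was within 0.04 of the higher wild-type reading, and the difference of 0.25 did not pass (adjusted p = 0.205). Krt15, a type I keratin of basal and progenitor cells, differed by 0.22 (adjusted p = 0.0613) and Krt79 by 0.20 (adjusted p = 0.103), each with both CFLARs Tg arrays on top. Krt12, the keratin of the cornea, differed by 0.16, Krt77 by 0.04 and Krt10, of the upper epidermis, by 0.0006, and their groups overlapped. The median over the 7 was 0.20, and over all 19 with a probe set 0.10.

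Among the 12 stratified keratins under the filter, the injury-associated keratins had the largest differences. Krt6b read 6.50 and 6.56 in wild-type and 7.42 and 7.34 in CFLARs Tg, a difference of 0.85. Its wild-type readings lay within the range of 5.13 to 6.78 that Y-linked genes gave on XX-type arrays and Xist on XY-type arrays. The part of background in the difference was not tested. Krt6b passed when all 19938 genes were fitted (SE 0.06, limma adjusted p = 0.0109). Krt6a, its close copy, read 6.65 and 6.66 against 6.85 and 7.17, and Krt16, the type I keratin that pairs with both, read 6.99 and 6.96 against 7.55 and 7.21. The groups did not overlap in either gene, and neither passed without a filter (differences 0.35 and 0.40, adjusted p = 0.117 and 0.0984). The high CFLARs Tg reading of Krt6a was that of the XCFY array and that of Krt16 was the XCFX array. Without CFLARs Tg replicate 1, Krt6a differed by 0.51 and Krt16 by 0.23, and without replicate 2 by 0.19 and 0.57. The other 9 of the 12 differed by -0.02 to 0.15. Krt6a and Krt6b, and Krt14, Krt16 and Krt17, are similar in sequence, and cross-hybridisation between them was not tested.

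The median difference over all 23 hair keratins was 0.01, with 12 above 0 and 11 below. Of the 4 fitted, 0 passed (limma), beside 8.44% of all genes fitted that rose and 10.9% that fell. At an unadjusted p under 0.05 (limma) 1 was higher, Krt33b, beside 17.2% of all genes fitted. With 4 genes fitted, a count of 0 cannot show that the class was unchanged. The fitted members were Krt33b, Krt42, Krt87 and Krt75, with differences of 0.18, 0.12, 0.12 and -0.08. However, 2 of the 19 under the filter stood apart from the rest. Krt36, a type I hair keratin, read 7.04 and 6.82 in wild-type and 7.56 and 7.79 in CFLARs Tg, a difference of 0.74. Krt84, a type II hair keratin, read 7.13 and 7.24 against 7.61 and 7.65, a difference of 0.44. When all 19938 genes were fitted, both passed (SE 0.12 and 0.07, limma adjusted p = 0.0275 and 0.0266). The other 17 differed by -0.24 to 0.13. The lowest was Krt39, with 6.49 and 6.50 in wild-type and 6.31 and 6.21 in CFLARs Tg, which did not pass (adjusted p = 0.0794 without a filter). Its readings all lay within the background range given for Krt6b, and without CFLARs Tg replicate 1 it differed by -0.29. Among keratins without a class, Krt80, a type II keratin found in many epithelia, read 7.90 and 8.01 against 8.26 and 8.42 and rose by 0.39 (SE 0.08, limma adjusted p = 0.042). Krt88 and Krt90 differed by 0.17 and 0.10 (adjusted p = 0.156 and 0.297), and Krt222, under the filter, by -0.08.

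**Figure D2:**
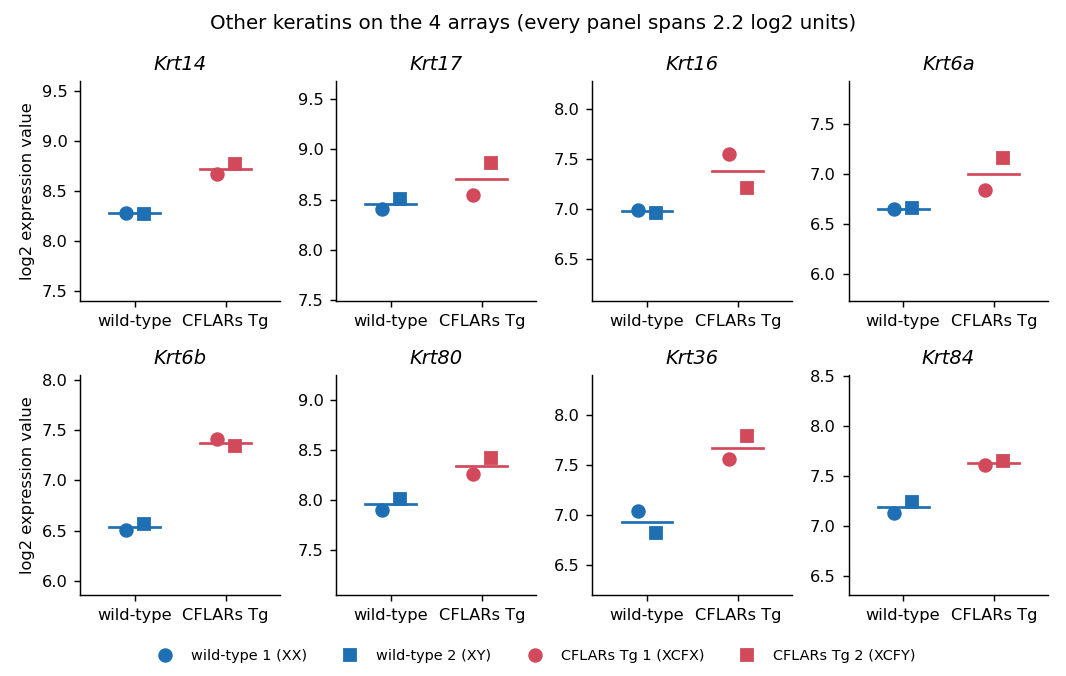
Log2 expression values on each of the 4 arrays for 8 keratins outside the simple-epithelial class, with the mean of each genotype as a line. The CFLARs Tg points lie above the wild-type points in all 8 panels, closest in Krt17, and the 2 CFLARs Tg points of Krt16, Krt17 and Krt6a are the most spread.

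Without a filter on low values, 10 of the 52 keratins passed, all higher in CFLARs Tg, where 5.31% of all genes passed in that direction. They were the 7 that rose with the filter and Krt6b, Krt36 and Krt84. As lower, 0 passed (limma, adjusted p under 0.05), where 6.70% of all genes passed at that threshold. At an unadjusted p under 0.05 (limma) 2 were lower, and the share of all genes at the unadjusted threshold was not counted for this fit. Both CFLARs Tg arrays lay above both wild-type arrays in 29 of 52 keratins and below them in 5, beside 29.2% and 31.6% of all genes. Among the 20 fitted the counts were 16 and 1, beside 32.0% and 37.6% of all genes fitted. By class the count above was 6 of 6 simple-epithelial, 11 of 19 stratified, 9 of 23 hair and 3 of 4 keratins without a class. The filter stood at a mean log2 value of 7.48, with Krt73 (7.45) just under it and Krt75 (7.54) just over it. For the 3 weakly measured genes the calls without a filter were lost when either wild-type array was left out (adjusted p from 0.0957 for Krt6b to 0.224 for Krt84).

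In the genome the keratins of the array form 2 clusters, 27 genes on chromosome 11 and 25 on chromosome 15. The chromosome 11 cluster holds type I keratins and Krt222, and the chromosome 15 cluster holds the type II keratins and Krt18. On chromosome 15 the 4 genes that rose were the first 2 keratins in the order, Krt80 and Krt7, and the last 2, Krt8 and Krt18. The 21 between them included Krt84 and the neighbours Krt6b and Krt6a. On chromosome 11 the neighbours Krt20 and Krt23 rose, with Krt12 (0.16) on one side and Krt39 (-0.24) on the other. Krt14, Krt16 and Krt17 lie side by side there and differed by 0.44, 0.40 and 0.25. The order came from the gene table of GRCm38.p6.

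**Figure D3:**
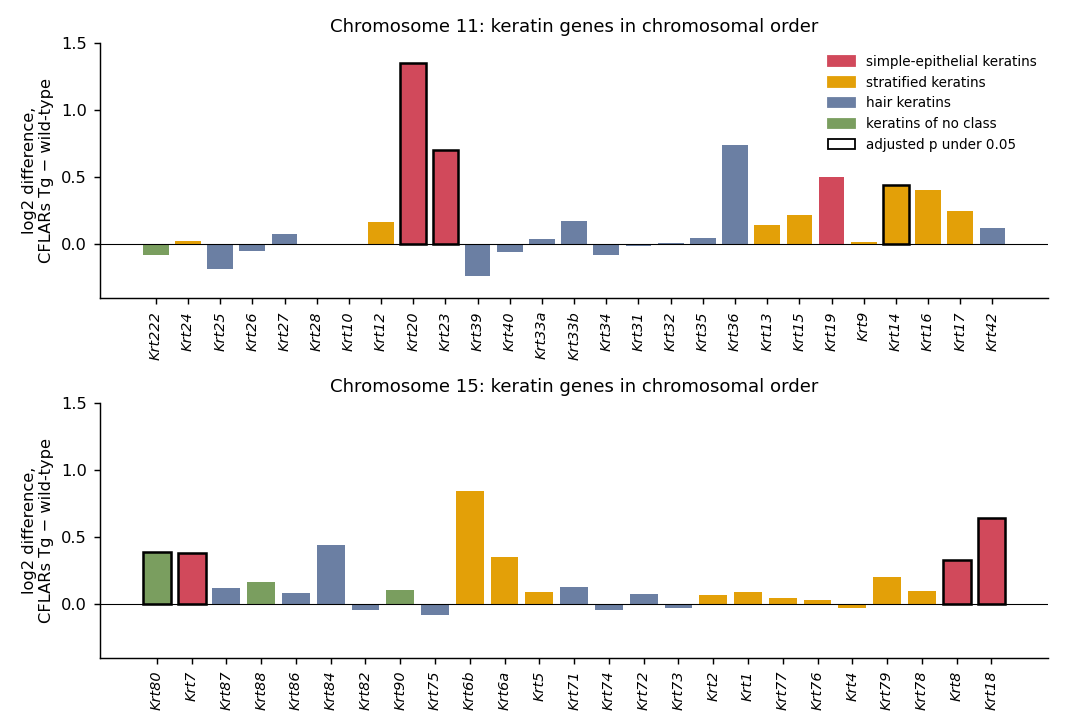
Difference between the genotypes (CFLARs Tg minus wild-type, log2) for each keratin gene, placed in chromosomal order and coloured by class, with a black edge where the adjusted p was under 0.05. Bars over 0.60 are those of Krt20, Krt23 and Krt36 on chromosome 11 and of Krt6b and Krt18 on chromosome 15, of which Krt36 and Krt6b were under the filter.

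The differences were also read within each pair of arrays, that is XCFX against XX and XCFY against XY, with neither replicate nor test. Krt20 differed by 1.62 in the XX-type and 1.07 in the XY-type pair. Krt19 differed the other way round, by 0.34 and 0.66. Krt18 (0.67 and 0.61), Krt23 (0.63 and 0.78), Krt7 (0.31 and 0.46), Krt8 (0.41 and 0.25) and Krt14 (0.39 and 0.50) were closer between the pairs. All 6 simple-epithelial keratins were higher in both pairs. Over the family, 44 of 52 keratins were higher between the XX-type arrays and 31 between the XY-type arrays, beside 10378 and 9137 of all 19938 genes, and hair keratins went from 17 of 23 to 9 of 23.

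**Figure D4:**
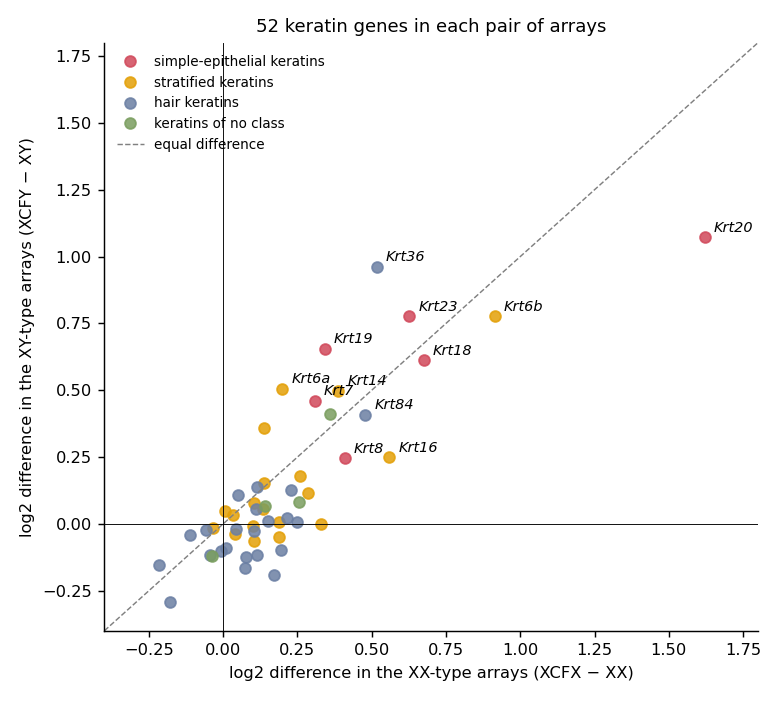
Difference between the genotypes in the XX-type arrays (horizontal) against that in the XY-type arrays (vertical) for the 52 keratins, in log2 units, with equal differences on the dashed line. Krt20 lies farthest right at 1.62 and 1.07, Krt36 and Krt19 lie above the line, and most hair keratins lie near 0.

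Genes whose products hold or regulate keratin filaments were read from lists. Keratin filaments end on desmosomes, and 4 of 10 fitted desmosome and plakin genes rose and 0 fell, with a median of 0.07, where 8.44% of all genes fitted rose and 10.9% fell. At an unadjusted p under 0.05 (limma) 4 were higher and 1 lower, beside 17.2% and 21.9% of all genes fitted. The differences of the 10 ran from -0.43 to 0.49. The desmosomal cadherins Dsg2 (10.20 and 10.23 in wild-type, 10.72 and 10.68 in CFLARs Tg) and Dsc2 rose by 0.49 and 0.45. The armadillo protein gene Pkp2 rose by 0.49 and the plakin gene Ppl by 0.45 (limma adjusted p from 0.0185 to 0.0322). Desmoplakin (Dsp), which binds the filaments themselves, differed by -0.18 and plakoglobin (Jup) by 0.09, and neither passed (adjusted p = 0.201 and 0.458). Of 8 hemidesmosome genes, which anchor keratins to the basement membrane, 1 rose, the integrin gene Itga6, by 0.37 (adjusted p = 0.0293), a share near that of all genes.

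Of 17 fitted genes that modify or control keratins, 1 rose and 2 fell, with a median of 0.13, and these counts are near the shares of all genes (8.44% and 10.9%). Sfn, which encodes the epithelial 14-3-3 sigma protein, a partner of phosphorylated keratins, read 9.53 and 9.59 in wild-type and 10.85 and 10.97 in CFLARs Tg, a rise of 1.35 (SE 0.07, limma adjusted p = 0.00466). Casp6, a caspase that cleaves Krt18 and lamins, read 11.52 and 11.66 in wild-type and 10.75 and 10.49 in CFLARs Tg and fell by 0.97 (SE 0.11, adjusted p = 0.0183). Prkce, a kinase that phosphorylates Krt8 and Krt18, fell by 0.40 (adjusted p = 0.0401). The transcription factor gene Klf4 and the keratin organiser gene Fam83h differed by 0.55 and 0.43 (adjusted p = 0.0655 and 0.0552). Both passed with the sex type of the titles as a block (adjusted p = 0.0284 and 0.0235), and Fam83h also after quantile normalization (0.049). Klf4 differed by 0.34 without CFLARs Tg replicate 1 and 0.76 without replicate 2, and it passed in both fits. Of 13 fitted genes of other intermediate filaments and their binding proteins, 3 rose and 1 fell, with a median of 0.11, beside the same 8.44% and 10.9% of all genes. Nes, the nestin gene, and Lmna, the gene of the nuclear lamins A and C, rose by 0.60 and 0.55 (adjusted p = 0.0235 and 0.0474), as did the lamin gene Lmnb1 by 0.34 (adjusted p = 0.0287). Eppk1, the epiplakin gene, whose product binds keratins, fell by 0.72 (adjusted p = 0.0479). Neither Lmna nor Eppk1 passed when all genes were fitted (adjusted p = 0.054 and 0.0539), and Eppk1 also missed the threshold after quantile normalization or median centring (0.0529 and 0.0515).

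Of the cornified envelope genes, which build the sheath of dead skin cells that encloses keratin, 4 of 16 with a probe set were fitted. Of these 4, 2 rose, beside 8.44% of all genes fitted. Sprr1a read 8.07 and 8.15 in wild-type and 10.83 and 10.77 in CFLARs Tg, a 6.46-fold difference (log2 difference 2.69, SE 0.06, limma adjusted p = 0.000848). Among the genes of these 5 lists named here, Sprr1a was the only one that passed without either wild-type array. Tgm1, a transglutaminase gene, rose by 0.74 (adjusted p = 0.0214). Without a filter 4 of the 16 passed as higher, Sprr2b and Sprr2d being the others, beside 5.31% of all genes. As lower, 1 passed, beside 6.7% of all genes. That was Ivl, the involucrin gene, with 7.84 and 7.56 in wild-type and 6.86 and 6.85 in CFLARs Tg (difference -0.85, adjusted p = 0.0203). The other calls of these 5 lists made with the filter were lost when either wild-type array was left out, and those of Sprr2b, Sprr2d and Ivl were not refitted in that way.

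**Figure D5:**
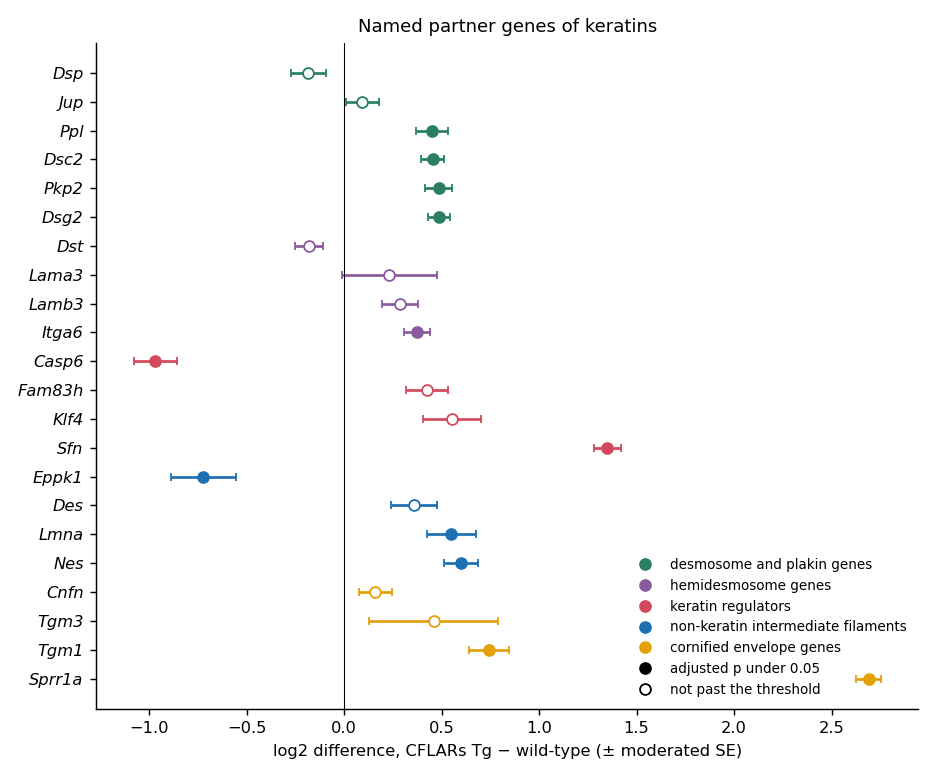
Difference between the genotypes (log2, with the moderated SE as a bar) for genes of the 5 partner lists, filled where the adjusted p was under 0.05. Shown are the 4 fitted genes with the largest difference in each list, and Dsp and Jup. Prkce, Lmnb1, Sprr2b, Sprr2d and Ivl are not plotted. Sprr1a and Sfn lie farthest to the right, at 2.69 and 1.35, and Casp6 and Eppk1 on the left, at -0.97 and -0.72.

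Markers of the tissue and of other cell types were read beside these results. All 12 small intestinal epithelium markers passed the filter, with list means of 12.18 and 12.17 in wild-type and 12.16 and 11.91 in CFLARs Tg. Of these, 1 rose and 1 fell, beside 8.44% and 10.9% of all genes fitted. Elf3 rose by 0.42 and Hnf4g fell by 0.63 (limma adjusted p = 0.0465 and 0.0272), the call of Elf3 being lost without a filter (0.0542). The absorptive enterocyte genes Fabp2 and Alpi differed by -0.72 and -0.52 with both CFLARs Tg arrays below both wild-type arrays (adjusted p = 0.127 and 0.0898). Alpi passed with the block (adjusted p = 0.0354), and both passed when either CFLARs Tg array was left out. Cdx2 differed by -0.21 (adjusted p = 0.118), and the structural genes Vil1 and Epcam by -0.08 each. Of the 12, both CFLARs Tg arrays lay above both wild-type arrays in 3 and below them in 6, beside 32.0% and 37.6% of all genes fitted. Of 13 squamous epithelium markers with a probe set 3 passed the filter, with list means of 7.13 and 7.12 against 7.23 and 7.32. Ly6d rose by 2.40 (adjusted p = 0.0167), whereas Trp63, the master regulator of stratified epithelia, read 7.18 to 7.35 and Dsg3 6.08 to 6.16 on all arrays. Ivl (-0.85, given above) and Lor (-0.37, adjusted p = 0.0582 without a filter) were lower. Of the 13 markers the arrays lay apart as higher in 3 and as lower in 4, beside 29.2% and 31.6% of all genes. Leukocyte markers were higher, with list means of 8.54 and 8.57 in wild-type and 9.05 and 9.53 in CFLARs Tg. Of 11 fitted, 2 rose (Ly6g and Csf3r), beside 8.44% of all genes fitted. At an unadjusted p under 0.05 (limma) 9 were higher and 0 lower, beside 17.2% and 21.9% of all genes fitted. Mesothelium markers had list means of 9.06 and 8.94 against 9.01 and 9.10. Of 8, 1 rose (Wt1, by 0.27), beside 8.44% of all genes fitted. Wt1 did not pass with the block (limma adjusted p = 0.0595). Upk3b, the largest difference of that list, differed by -0.31 (adjusted p = 0.0618). Of 9 smooth muscle and 7 fitted tuft cell markers 0 passed (limma), where 8.44% of all genes fitted rose and 10.9% fell. At an unadjusted p under 0.05 (limma) 1 was higher in each list and 1 lower, the smooth muscle gene Mylk. At that threshold 17.2% of all genes fitted were higher and 21.9% lower. Lists of this size cannot show that a cell type was unchanged. Pancreas markers were high on wild-type replicate 2, with a list mean of 9.06 against 7.37 to 7.77 on the other arrays, and without that array the differences were 1.37 for Krt20, 0.66 for Krt18, 0.38 for Krt8, 0.34 for Krt7, 0.55 for Krt19 and 0.62 for Krt23. The part of these cell types in the keratin differences was otherwise not tested, and in whole tissue a change in the share of cells of a type and a change in RNA per cell cannot be told apart.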

How the data were processed

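Total RNA of small intestine was labelled with biotin and hybridised to single-colour Affymetrix arrays, 4 in all, per the labels' protocols. The authors deposited log2 expression values for 28856 probe sets, with 0 missing values and array medians of 8.31 to 8.33. How probe signals were summarised, corrected and normalized is not given in the sources used here, and no further scaling was applied.

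The supplied platform annotation gave 1 symbol for 21789 probe sets, several for 1621 and none for 5446, and only the first were named. The gene table of GRCm38.p6 held 21698 of their identifiers and changed 0 symbols. Each gene was represented by its probe set with the highest mean. Genes in the lowest 30% by their 4-array mean were removed, and the other 13956 were fitted with limma 3.58.1 (R 4.3.3; lmFit, eBayes, 2 residual and 2.64 prior degrees of freedom), with Benjamini-Hochberg adjustment over all of them and a threshold of 0.05. The script was tested on simulated data. Differences are CFLARs Tg minus wild-type (log2) with the moderated SE.

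Members, classes and lists were chosen with earlier results of these data known. Named were every simple-epithelial keratin, every other keratin over the filter, the largest differences under it, and, in the partner lists, the 4 fitted genes with the largest difference, which stand in the text or in the plot of partner genes. Of marker lists fewer were named than that rule allows. Krt5, Krt39, Krt222, Dsp, Jup, Prkce, Lmnb1, Sprr2b, Sprr2d, Ivl, Lor, Cdx2, Vil1, Epcam, Trp63 and Dsg3 were added after their values were seen. The labels do not say that arrays came from separate animals, so p-values measure the spread between arrays, which may be technical in part. Xist and the Y-linked genes followed the titles, and no pair of arrays had more than 33 equal values. The number of arrays limits the precision. Alternatives were other normalizations, filters, probe set summaries and tests, the sex type of the titles as a block, and leaving out each array.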

Additional observations from a re-analysis of the deposited data

Results flagged for a closer look

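In 13 of the 52 keratins the XX-type and the XY-type pair of arrays differed in opposite directions, which was not tested, since each pair is 1 array against 1. In all 13 the XX-type pair was the higher one. The gap, XY-type minus XX-type difference, was -0.36 for Krt31 (0.17 and -0.19), -0.33 for Krt12 (0.33 and -0.0009) and -0.29 for Krt35. It was -0.24 for Krt26, -0.24 for Krt2, -0.23 for Krt28, -0.20 for Krt73, -0.17 for Krt9, -0.13 for Krt33a, -0.11 for Krt77, -0.10 for Krt74, -0.079 for Krt10 and -0.061 for Krt32. Of these, Krt10, Krt12 and Krt77 passed the filter on low values. Among the partner and marker genes read singly, which are not all members of their lists, 10 also had opposite pairs. Tgm3 differed by 1.12 in the XX-type and -0.20 in the XY-type pair (a gap of -1.32), Lama3 by 0.60 and -0.13 (-0.73), and the gap of Col17a1 was -0.17. It was -0.21 for Vil1, -0.21 for Epcam, 0.18 for Dclk1, 0.20 for Sbsn and 0.11 for Sox2. The pancreas genes Cpb1 and Cela2a had gaps of -3.33 and -1.99, and both read highest on wild-type replicate 2. Of all 11 pancreas markers, 9 were higher in the XX-type and 0 in the XY-type pair.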

How the results depend on the processing

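The 7 keratin calls kept their side of the threshold under quantile normalization, median centring, an intensity trend and no filter. They also did so with the sex type of the titles as a replicate block, which added Krt19 and changed no other keratin call among those fitted. Median centring could change little, as the array medians were 8.31 to 8.33. The median of probe sets, where the 7 calls also stood, could not change a keratin value, since each of the 52 had only 1 probe set. With the lowest 50% of genes left out, 4 keratins were called among the 6 still fitted. When limma's treat asked for a log2 difference over 0.5, 0 keratins passed (unadjusted p under 0.05 for 3) and 63 genes did in all. Leaving out 1 array moved the keratins called higher between 0 and 10 and the genes called between 40 and 6559. The median of simple-epithelial keratins lay between 0.51 and 0.66 when 1 array was left out. Without a filter the medians of stratified and hair keratins were 0.10 and 0.01. In the partner lists, treat left 0 desmosome, 0 hemidesmosome, 1 regulator, 0 other intermediate filament and 1 cornified envelope call. The block gave 2 hemidesmosome and 5 regulator calls, quantile normalization 5 regulator calls, and no filter 2 other intermediate filament and 5 cornified envelope calls. With 1 array left out the calls ran from 0 to 6 for desmosome, 0 to 3 for hemidesmosome, 0 to 8 for regulator, 0 to 8 for other intermediate filament and 1 to 2 for cornified envelope genes. Signs turned in genes that were not called in the fit of all 4 arrays with the filter. Krt10 was -0.0113 after quantile normalization, and with 1 array left out it ran from -0.036 to 0.0373. With 1 array left out, Lama3 ran from -0.1324 to 0.5975, Col17a1 from -0.025 to 0.0913, Sbsn from -0.081 to 0.1642, Dclk1 from -0.0227 to 0.1382, Epcam from -0.1541 to 0.0029, Vil1 from -0.1825 to 0.0306 and Cela2a from -1.5965 to 0.0923. Without a filter, the block removed the call of Krt8 and added that of Krt19. The cause was not tested. The fits without a filter that left out 1 array were chosen after seeing the data. Readings near the lowest values may carry background, and its part in the differences of Krt6a and Krt6b was not tested.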
